A study of Mus musculus with 4 samples.

Results

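The genes described here encode the proteins that move zinc, copper, magnesium and manganese across the membranes of the colon epithelium, together with the metallothioneins that bind zinc and copper in the cytosol. They were taken by symbol as all members of the Slc30a, Slc31a, Slc39a and Slc41a carrier families and Mt1 to Mt4 that a probe set of a single gene names. The rule found 33 of 19938 measured genes and used no expression value. Of the 33, Slc39a1 alone rested on more than 1 probe set. Colon was taken from male C57BL/6 mice, 11 weeks old, after 14 days on a feed with 40% of its energy as fat and little calcium. The groups were surface cells on heme, surface cells on the control feed, crypt cells on heme and crypt cells on the control feed, and the heme feed held heme, the iron porphyrin of red meat, at 0.5 µmol/g. Both cell populations were cut from frozen sections by laser capture microdissection, and RNA was pooled over 3 mice on heme and over 4 on control before hybridisation. Each group is therefore 1 pool on 1 array, both pools of a diet share their mice, and no difference below has a replicate check, an error or a p-value.

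As background, the Slc39a proteins, also called ZIP, bring zinc into the cytosol from outside the cell or from organelles, and the Slc30a proteins, also called ZnT, carry it out of the cytosol to either destination. Metallothioneins are small cysteine-rich proteins that hold zinc and copper. Their genes respond to zinc through the transcription factor Mtf1, and also to oxidative stress and glucocorticoids. In the intestine, Slc39a4 takes up dietary zinc at the apical membrane, Slc31a1 takes up copper and Slc30a1 exports zinc.

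Levels are deposited log2 expression values after RMA (a standard background correction, quantile normalization and probe summary), and every difference is a difference of log2 values, so that 1 means 2-fold. In the counts, higher and lower mean a difference of at least 2-fold in which at least 1 of the compared arrays reached a floor of 5.75, the middle of the distribution of gene levels. This is a rule of size and not a test. Of the 33 members, 29 reached the floor on at least 1 array, 23 of them on all 4. The remaining 4 stayed under it throughout, with levels of 4.90 to 5.15 for Slc30a2, 3.35 to 3.60 for Slc30a8, 4.69 to 5.12 for Slc39a6 and 3.73 to 3.99 for Slc39a12. Slc30a8 is known from the insulin granules of pancreatic beta cells and Slc39a12 from the brain.

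The dissection was checked against marker genes. On heme, all 10 markers of surface colonocytes exceeded their crypt level at least 2-fold in surface cells, and 9 of the 10 did so on the control diet. The log2 of their summed level was 15.45 on the heme surface array, 15.06 on control surface, 11.90 on heme crypt and 10.52 on control crypt. All 9 measured mitosis markers were lower in surface cells on both diets. In crypt cells on heme, 6 of the 10 surface markers and 7 of the 9 mitosis markers were higher than in control crypt cells. In the same comparison, the 10 immune markers had a summed level of 10.03 on heme against 10.69 on control, the 11 smooth muscle and fibroblast markers 11.67 against 12.52 and the 8 endothelial markers 9.37 against 9.99. Cd3g, Cd79a and Itgam were under the floor on all 4 arrays. In surface cells on heme, 3 of the 10 surface colonocyte markers were higher (median 0.66). Of the 5 measured tuft cell markers 4 reached the floor there and 3 were lower (Dclk1, Trpm5 and Sh2d6), with a summed level of 8.29 on heme against 9.16 on control. Of 5 deep crypt secretory markers, Spink4 and Reg4 were higher and Kit was lower (11.03 against 10.59), and of 8 enteroendocrine markers Gcg and Insl5 were higher and Chga was lower (11.16 against 10.88). The part of these differences in the results below was not tested. In such pools, fewer cells of a type and less RNA per cell cannot be told apart.

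The regulatory sequence before the genes that the heme comparison turns on is shown first. The windows are the 250 bases before a start annotated by RefSeq on GRCm38.p6, all on the plus strand, printed 5′ to 3′. Capitals mark the core of the metal response element, to which Mtf1 binds, searched on both strands as TGCACNC or TGCGCNC. The windows of Mt1, Mt2, Mt4 and Slc30a10 are given because these members passed 2-fold on heme in surface cells, and that of Slc30a1 because it is a known Mtf1 target that did not. They lie at chr8:94178839-94179088 (Mt1), chr8:94172368-94172617 (Mt2), chr8:94136954-94137203 (Mt4), chr1:185454598-185454847 (Slc30a10) and chr1:191906531-191906780 (Slc30a1).
Mt1: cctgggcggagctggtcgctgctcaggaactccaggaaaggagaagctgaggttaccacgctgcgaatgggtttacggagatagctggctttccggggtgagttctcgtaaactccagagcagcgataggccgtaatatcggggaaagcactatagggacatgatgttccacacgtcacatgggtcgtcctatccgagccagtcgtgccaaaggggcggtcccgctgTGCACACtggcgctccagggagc
Mt2: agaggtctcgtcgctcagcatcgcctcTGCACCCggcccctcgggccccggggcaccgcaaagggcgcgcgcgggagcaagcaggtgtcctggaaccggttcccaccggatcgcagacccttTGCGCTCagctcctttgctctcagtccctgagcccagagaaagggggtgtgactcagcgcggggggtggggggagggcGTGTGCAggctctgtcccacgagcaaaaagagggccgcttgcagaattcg
Mt4: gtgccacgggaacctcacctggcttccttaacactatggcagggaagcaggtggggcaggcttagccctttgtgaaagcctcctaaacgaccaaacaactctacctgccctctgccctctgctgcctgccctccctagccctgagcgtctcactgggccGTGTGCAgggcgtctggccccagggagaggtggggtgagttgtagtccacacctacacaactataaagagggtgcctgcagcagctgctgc
Slc30a10: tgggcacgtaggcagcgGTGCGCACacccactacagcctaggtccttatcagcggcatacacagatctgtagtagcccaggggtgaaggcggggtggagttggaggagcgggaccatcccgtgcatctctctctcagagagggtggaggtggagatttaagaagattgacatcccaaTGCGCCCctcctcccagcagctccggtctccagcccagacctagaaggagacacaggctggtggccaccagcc
Slc30a1: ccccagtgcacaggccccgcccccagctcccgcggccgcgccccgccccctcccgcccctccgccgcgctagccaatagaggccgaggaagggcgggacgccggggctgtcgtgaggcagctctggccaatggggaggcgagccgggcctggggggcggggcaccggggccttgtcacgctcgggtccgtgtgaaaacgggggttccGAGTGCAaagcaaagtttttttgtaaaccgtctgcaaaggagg

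The Mt2 window held 3 cores, starting 223, 128 and 50 bases before the annotated start. The Slc30a10 window also held 3, of which the pair starting 233 and 232 bases before the start overlap and read from opposite strands. Mt1, Mt4 and Slc30a1 held 1 each, at 23, 91 and 43 bases. The annotated Mt1 gene begins inside its own window, so more than 1 start is annotated, and the number and place of its cores depend on the start used. Windows were taken for 29 of the 33 members, 34 windows in all, and 18 of the 34 held the core. Slc30a8, Slc39a4, Slc39a6 and Slc39a14 had none. Member windows on chromosome 18, where Slc39a6 lies, were left out, and the set of all windows kept that chromosome. Of 32851 promoter windows of the same length, 21.4% held at least 1 core and 1.26% held 3 or more. The antioxidant response element core, TGACNNNGC, was in 8 of the 34 member windows, among them those of Mt2 and Slc30a1, and in 10.2% of all windows. A match is a run of letters and not a measured binding site, and a core outside these windows was not looked for.

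The metallothioneins stood out among the members on heme. In surface cells, Mt1, Mt2 and Mt4 were higher on heme and the exporter gene Slc30a10 was lower, and none of the other 29 members passed 2-fold. In crypt cells, Mt2 was higher and no member was lower. The 3 higher and 1 lower in surface cells are among 29 members that reached the floor there. Over all genes, 5.63% of 10282 were called in either direction in surface cells, 3.62% higher and 2.01% lower. In crypt cells 27 members reached the floor. Of 10491 genes 2.97% were called there, 1.78% higher and 1.19% lower, so 1 of 27 members is near the background. Over the members reaching the floor, the median difference was 0.00 in surface cells and -0.12 in crypt cells, against -0.02 and 0.01 over all genes.

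**Figure D1:**
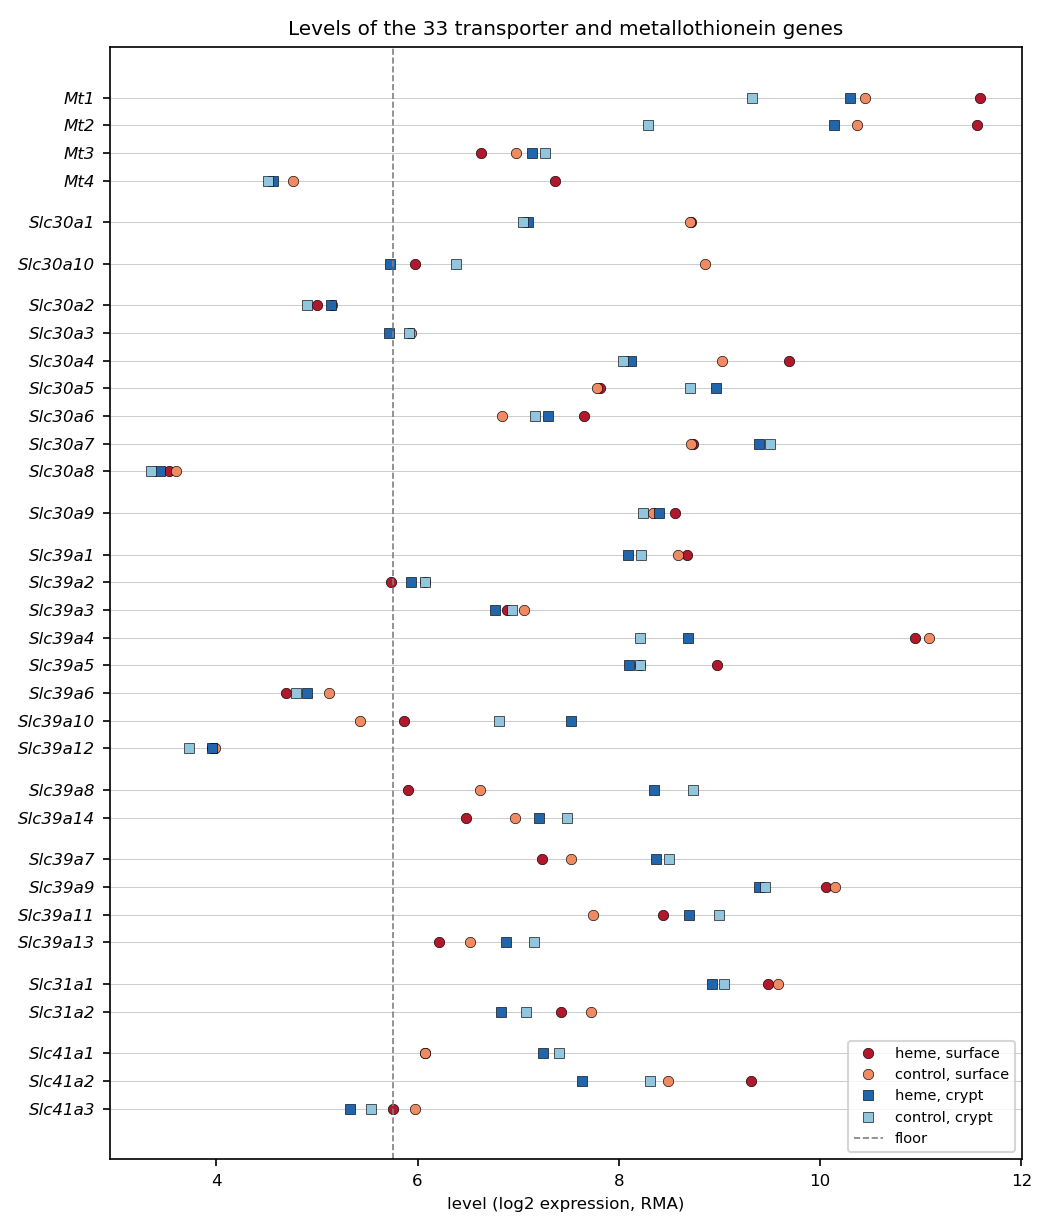
Level of each of the 33 genes (log2 expression, RMA) on the 4 arrays, with 1 point per pool, grouped by role from metallothioneins at the top to magnesium transporters at the bottom; the dashed line is the floor of 5.75. Mt1 and Mt2 are highest on the heme surface array at 11.59 and 11.56, Mt4 reaches the floor on that array only, and Slc30a10 is highest on the control surface array at 8.86.

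Mt2 had a level of 11.56 in surface cells on heme and 10.37 on control, and of 10.14 in crypt cells on heme and 8.29 on control. The heme difference was 1.19 (2.29-fold) in surface cells and 1.85 (3.60-fold) in crypt cells. The crypt difference ranked 13th from the top among the 10491 genes. The level in heme crypt cells thus lay close below that in control surface cells, and the surface excess over crypt was 1.42 on heme against 2.08 on control.

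Mt1, the neighbouring gene of the same kind, had levels of 11.59 on heme and 10.45 on control in surface cells, and of 10.30 on heme and 9.33 on control in crypt cells. It was 2.21-fold higher on heme in surface cells (1.14). In crypt cells its difference of 0.98 fell just short of 2-fold. For both genes the heme surface pool was the highest of the 4 and the control crypt pool the lowest. The proteins are closely related, and whether the probes of one gene also read the other was not tested.

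Mt4, known from stratified squamous epithelia, had a level of 7.37 in surface cells on heme, against 4.76 on control, and of 4.56 and 4.52 in crypt cells on heme and control. Only the heme surface pool reached the floor. The difference of 2.60 (6.08-fold) in surface cells rests on a control value below the floor, so its size is uncertain, and with log2(2^value + 32), which damps low values, it was 1.74. In crypt cells the difference was 0.05 between values that were both under the floor.

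Mt3, a metallothionein best known from the brain, did not follow the others. Its levels were 6.63 on heme and 6.98 on control in surface cells and 7.14 on heme and 7.27 on control in crypt cells, with differences of -0.36 and -0.13. It lies between Mt4 and Mt2 on chromosome 8, where the order is Mt4, Mt3, Mt2 and Mt1 with no other protein-coding gene between them. Of the 2 protein-coding neighbours on each side, Ogfod1 differed by 0.02 in surface and 0.36 in crypt cells, and Bbs2 by -0.05 and -0.23. On the other side, the nuclear pore gene Nup93 differed by 0.50 in surface cells and passed 2-fold in crypt cells at 1.00, and Slc12a3 by -0.14 and 0.32, with Slc12a3 under the floor on all 4 arrays. The 2-fold differences in surface cells therefore belonged to 3 of these 8 adjacent genes.

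**Figure D2:**
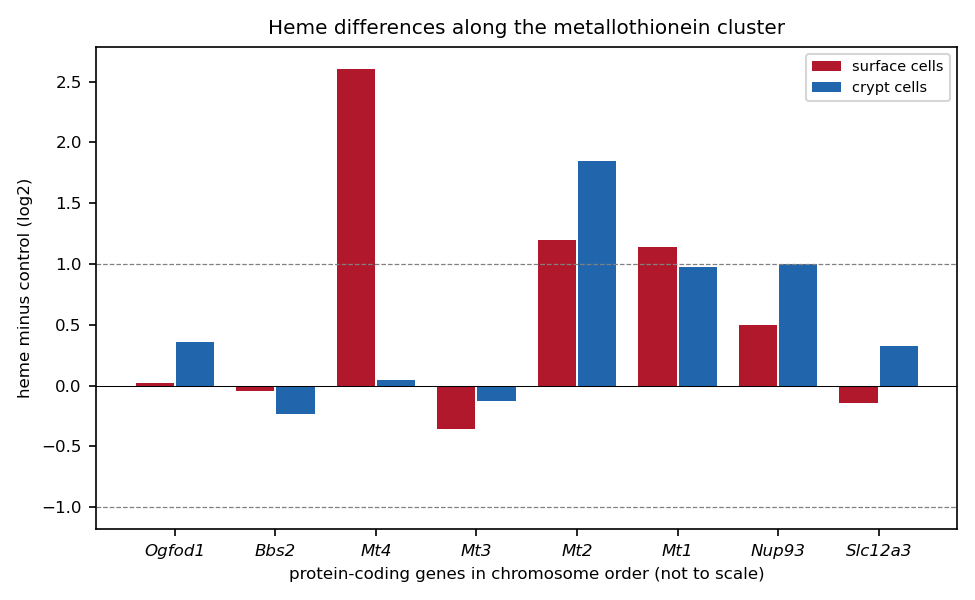
Heme minus control (log2) in surface cells (red, left bar) and crypt cells (blue, right bar) for the 4 metallothionein genes and the 2 protein-coding neighbours on each side, in chromosome order and not to scale; dashed lines mark 2-fold. Mt4 stands at 2.60 in surface and 0.05 in crypt cells, Mt3 lies below 0 in both, and Mt2 is the highest bar in crypt cells at 1.85.

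Among the zinc-exporting family, Slc30a10 had the largest heme difference. Despite its family it is a manganese exporter of the cell surface. Its level in surface cells was 5.98 on heme and 8.86 on control, and in crypt cells it was 5.73 on heme and 6.39 on control. The surface difference was -2.88, a level 7.38-fold lower on heme, and ranked 9th from the bottom among 10282 genes. The control surface pool stood apart from the other 3, which lay within 0.66 of each other, near the floor. With log2(2^value + 32) the surface difference was -2.39. In crypt cells the difference was -0.66.

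Slc30a1, the zinc exporter of the plasma membrane, differed little between the diets. It had 8.72 on heme and 8.71 on control in surface cells, and 7.10 on heme and 7.05 on control in crypt cells. The differences were 0.01 and 0.05. Its levels separated the compartments and not the diets.

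The Slc30a members that load vesicles and the secretory pathway gave no 2-fold difference on heme, with 5 of 7 reaching the floor. Slc30a6, which pairs with Slc30a5 in the early secretory pathway, had 7.66 on heme and 6.84 on control in surface cells, a difference of 0.82, against 0.13 in crypt cells. Its partner Slc30a5 differed by 0.03 in surface cells and 0.26 in crypt cells. Slc30a4, which fills vesicles with zinc and is needed for zinc in mouse milk, had 9.69 on heme and 9.03 on control in surface cells (0.66) and differed by 0.08 in crypt cells. Slc30a7, a zinc transporter of the Golgi, differed by 0.01 and -0.10, Slc30a3 of synaptic vesicles by -0.01 and -0.21, and the mitochondrial transporter gene Slc30a9 by 0.23 and 0.16.

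No Slc39a member passed 2-fold on heme in either compartment. The apical zinc importer gene Slc39a4 had 10.94 on heme and 11.09 on control in surface cells (-0.15), and 8.69 on heme and 8.21 on control in crypt cells (0.48). Slc39a5, a zinc importer of pancreas and intestine, had 8.98 on heme and 8.21 on control in surface cells (0.77) and differed by -0.11 in crypt cells. Slc39a10, a plasma membrane importer, was the member nearest 2-fold in crypt cells after Mt1, with 7.52 on heme and 6.81 on control (0.72), and differed by 0.43 in surface cells. Slc39a1, Slc39a2 and Slc39a3, zinc importers of the plasma membrane, differed by 0.09, -0.34 and -0.16 in surface cells and by -0.13, -0.14 and -0.17 in crypt cells. The 2 probe sets of Slc39a1 differed by 0.14 and 0.04 in surface cells and by -0.12 and -0.13 in crypt cells.

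The importers that also carry manganese were lower on heme in both compartments, short of 2-fold. Slc39a8 had 5.91 on heme and 6.62 on control in surface cells (-0.71) and 8.35 on heme and 8.74 on control in crypt cells (-0.39). Slc39a14, which also takes up iron, had 6.48 on heme and 6.97 on control in surface cells (-0.49) and 7.20 on heme and 7.49 on control in crypt cells (-0.28). Of the Slc39a members in internal membranes, Slc39a11 had 8.44 on heme and 7.74 on control in surface cells (0.69) and differed by -0.30 in crypt cells. Slc39a7, which releases zinc from the endoplasmic reticulum, differed by -0.29 and -0.12, Slc39a13, linked to connective tissue, by -0.30 and -0.28, and Slc39a9 of the Golgi by -0.08 and -0.05.

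The copper transporters differed little between the diets. Slc31a1, the copper importer of the plasma membrane, had 9.48 on heme and 9.58 on control in surface cells and 8.92 on heme and 9.05 on control in crypt cells. Slc31a2, a relative found in endosomes and lysosomes, had 7.42 on heme and 7.73 on control in surface cells and 6.83 on heme and 7.08 on control in crypt cells. All 4 differences were below 0, from -0.30 to -0.10.

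Of the magnesium transporters, Slc41a2 differed in opposite directions in the compartments. It had 9.31 on heme and 8.49 on control in surface cells (0.83), and 7.63 on heme and 8.31 on control in crypt cells (-0.67). Slc41a1, an exchanger of sodium for magnesium at the plasma membrane, differed by 0.00 in surface cells and -0.16 in crypt cells. Slc41a3, linked to magnesium efflux from mitochondria, differed by -0.22 and -0.21. Both of its crypt values, 5.32 on heme and 5.53 on control, were under the floor.

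**Figure D3:**
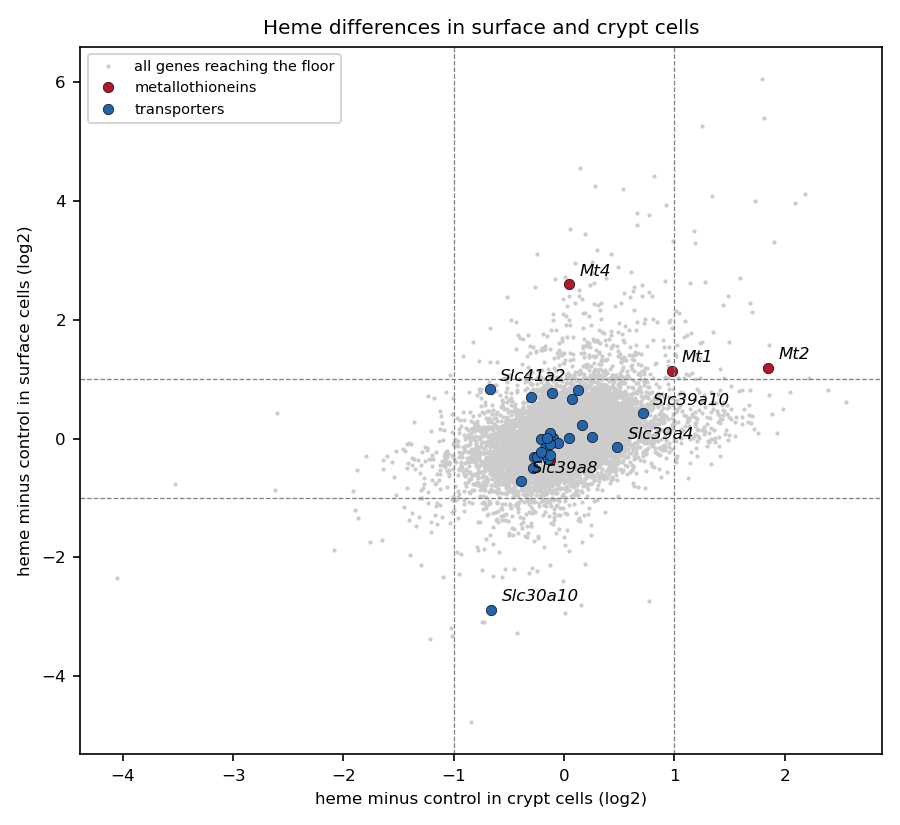
Heme minus control (log2) in crypt cells on the horizontal axis and in surface cells on the vertical axis; grey points are all genes that reached the floor on any array, coloured points the 29 members that did, and dashed lines mark 2-fold. Mt1 (0.98, 1.14) and Mt2 (1.85, 1.19) lie to the upper right, Mt4 (0.05, 2.60) is high in surface cells only, Slc30a10 (-0.66, -2.88) lies at the bottom, and the other members lie inside 2-fold on both axes.

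The surface heme difference less the crypt one passed 2-fold for 3 members, against 5.46% of 11147 genes (3.29% above 0 and 2.17% below). Mt4 gave 2.56 and Slc41a2 gave 1.499, and Slc30a10 gave -2.23. Slc39a11 came close at 0.99, followed by Slc39a5 at 0.88. For Mt1 the value was 0.17 and for Mt2 it was -0.65. Of the 29 members that reached the floor, 22 had heme differences of the same sign in both compartments and 7 of opposite sign. The same count over all genes was not made, so no trait of the members is read from it.

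Position along the crypt axis separated more members than diet did, and the same held over all genes, so no trait of the members is read from it. On each diet 28 members reached the floor. On heme, 7 members were higher in surface cells and 5 were lower, and on the control diet 5 were higher and 4 lower. The background was also wide, with 15.3% of 10698 genes higher and 16.5% lower on heme (31.8% in all) and 12.0% of 10864 higher and 13.5% lower on the control diet (25.5% in all). Mt1, Mt2, Slc30a1 and Slc39a4 were higher in surface cells on both diets, and Slc39a8, Slc39a10 and Slc41a1 were lower on both. The direction depends on the scale of the arrays, because ribosomal protein genes were themselves about 2-fold lower in surface cells (medians of -1.10 on heme and -1.08 on control). Centring on them moved the median of all genes to 1.06 on heme and 1.10 on control. It gave 17 members higher and 1 lower on heme, and 17 higher and 0 lower on control. Of all genes, 56.4% on heme and 56.9% on control passed 2-fold in this setting. The lower member left on heme was Slc39a8, at -1.33. The sides of the 2-fold members are thus given relative to all genes on the arrays as deposited.

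Among the members higher in surface cells, the importer gene Slc39a4 was 2.25 higher in surface cells on heme (4.76-fold) and 2.88 higher on control (7.36-fold). Slc30a1 was 1.62 higher on heme and 1.66 higher on control, a difference between diets of -0.04. Slc30a4 was 1.57 higher on heme and 0.98 on control. The metallothionein genes Mt1 and Mt2 were 1.29 and 1.42 higher in surface cells on heme, and 1.12 and 2.08 higher on control. Mt4 joined them on heme only, at 2.80 against 0.24 on control, where both of its values were under the floor.

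Of the zinc and manganese importers, Slc39a8 was the member lowest in surface relative to crypt cells, at -2.44 on heme and -2.11 on control. Slc30a10 showed the opposite side on the control diet (2.47, or 5.56-fold higher in surface cells) and little difference on heme (0.25). Slc39a10 was lower in surface cells by the size rule, at -1.66 on heme and -1.38 on control, and so was Slc41a1, at -1.17 on heme and -1.33 on control. Their surface levels were near or under the floor: 5.86 on heme and 5.43 on control for Slc39a10, and 6.07 on both for Slc41a1. With log2(2^value + 32), Slc39a10 on control (-0.94) and Slc41a1 on heme (-0.89) fell short of 2-fold. Slc30a5 (-1.15 on heme and -0.92 on control) and Slc39a7 (-1.13 and -0.97), both of the secretory pathway, passed 2-fold on heme and came close on control. Slc39a11 passed it on control (-1.26) and not on heme (-0.26), and Slc41a2 passed it on heme (1.68) and not on control (0.18). The copper genes were 0.53 to 0.65 higher in surface cells on both diets.

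**Figure D4:**
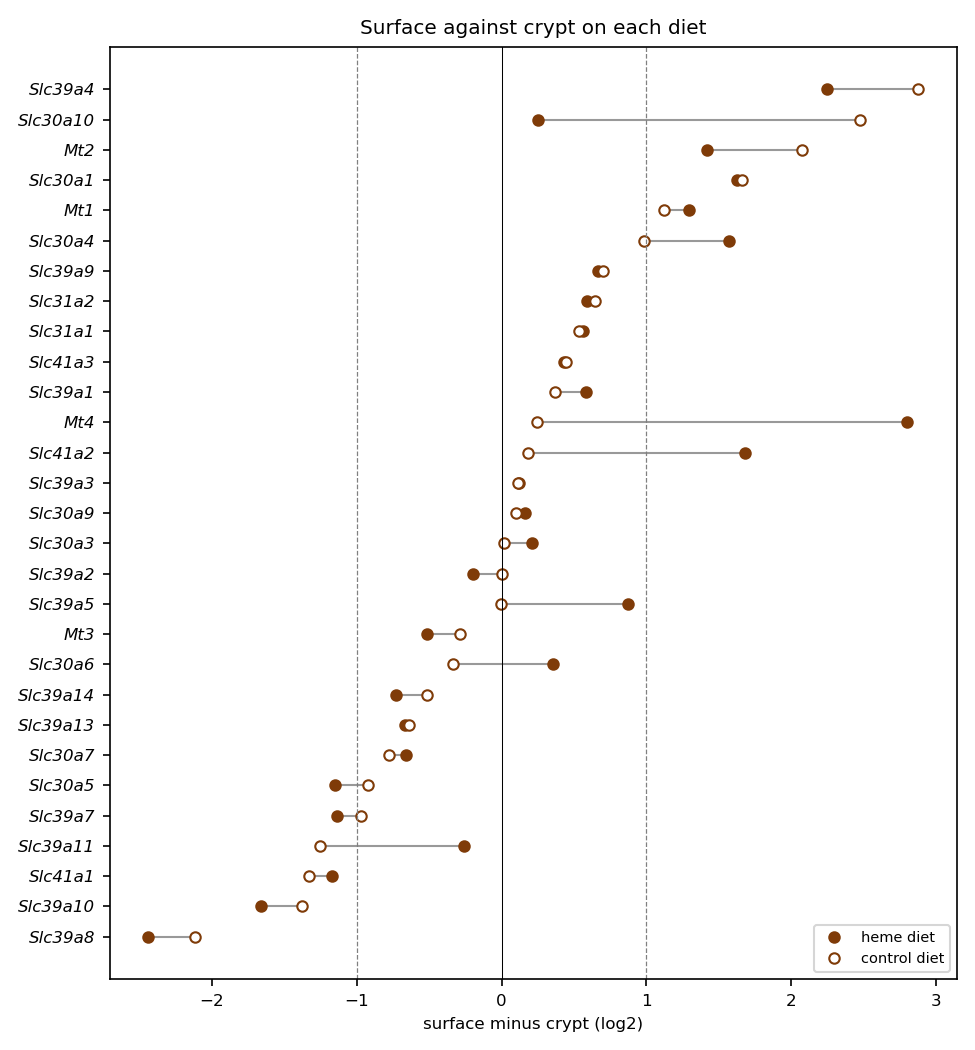
Surface minus crypt (log2) for the 29 members that reached the floor, on the heme diet (filled) and the control diet (open), ordered by the control value; dashed lines mark 2-fold. Slc39a4 and Slc30a1 lie to the right and Slc39a8 and Slc39a10 to the left on both diets, while Slc30a10 (0.25 on heme, 2.47 on control), Mt4 (2.80, 0.24) and Slc41a2 (1.68, 0.18) have the longest lines between the diets.

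Genes that work with the members gave the following. Of 17 other magnesium channel and transporter genes, 14 reached the floor, and 1, Nipal2, was higher on heme in surface cells (9.07 on heme, 6.72 on control, a difference of 2.35). Their median was 0.06 in both compartments. Trpm6, the apical magnesium channel of the colon, and Cnnm4, which extrudes magnesium at the basolateral side, were 3.44 and 1.56 above their crypt levels in surface cells on heme and 4.01 and 1.95 higher on control. Of 12 measured copper chaperone, pump and reductase genes, none passed 2-fold on heme in either compartment, and the largest difference was 0.67 for the copper chaperone gene Atox1 in surface cells. Of 13 copper enzyme genes, 12 were measured and 4 reached the floor in surface cells. Aoc1, a diamine oxidase, was lower on heme there (8.56 on heme, 10.43 on control, -1.88), and the ferroxidase gene Heph differed by 0.88.

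Of 6 measured genes for other carriers of manganese and divalent metals, none passed 2-fold on heme. Slc11a2, an importer of iron and other divalent metals, differed by -0.86 in surface cells and 0.35 in crypt cells, and the manganese and calcium pump gene Atp2c2 by -0.76 and -0.82. Slc40a1 differed by 0.71 and 0.44, with 11.66 on heme and 10.95 on control in surface cells. Mtf1 itself differed by -0.03 in surface cells and 0.57 in crypt cells. Of 5 other genes reported as its targets, Pgf was under the floor on all 4 arrays. Gclc was higher on heme in surface (3.29) and crypt cells (1.19) and Ndrg1 in surface cells (2.09). Gclc is also among the genes of the NRF2 antioxidant response given below. Csrp1 differed by 0.36 in surface cells and -0.12 in crypt cells, and Selenow by -0.31 in crypt cells.

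Zinc enzymes of the brush border and secretory pathway differed in both directions on heme. Of 19 measured, 13 reached the floor in surface cells, where Alpi, the intestinal alkaline phosphatase (1.77), the peptidase gene Enpep (1.32) and the carbonic anhydrase gene Car2 (1.21) were higher and the metalloprotease gene Mep1a (-1.43) was lower. In crypt cells 12 reached the floor, where Car1 (1.70) and Alpi (1.15) were higher and Car8 (-1.64) and Mep1a (-1.16) were lower. Alpi in crypt cells had 5.87 on heme, just above the floor, and 4.73 on control, under it. The size of that difference is therefore uncertain. Over all genes, 5.63% were called in surface cells and 2.97% in crypt cells. The medians of these zinc enzyme genes were 0.31 in surface cells and -0.06 in crypt cells.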

How the data were processed

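The authors hybridised 4 pools and deposited a log2 value for each probe set. The submitters' processing notes name RMA. Neither its version nor which arrays it normalized jointly is given in the sources used here. Of 35556 probe sets, 21789 had 1 gene symbol in the platform annotation, 1621 had several and 12146 had none. Symbols were updated through gene identifiers to GRCm38.p6, with 21698 of the 21789 matched, and single-symbol probe sets were averaged to 19938 genes. No probe set with several symbols named a member. Differences were taken between arrays, with the floor at 5.75 on any array compared. Detection calls were not used. Precision is limited by the number of arrays. No test was made, since each comparison sets 1 array against 1. An additive fit of diet and compartment over the 4 arrays, which would take their interaction as error, was not run. All members could be named, and up to 4 genes of each related list with the largest differences. The neighbours of the metallothionein cluster fall outside this rule and were taken by position, with the number per side set after values were seen. The members and lists were chosen with earlier results of these data known. Python 3.11.15, numpy 2.4.6 and pandas 2.3.3 were used, with matplotlib 3.10.9 for figures and limma 3.58.1 under R 4.3.3 for cyclic loess. Promoter sequences came from RefSeq. Proteins of the metallothioneins were not analysed here.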

Additional observations from a re-analysis of the deposited data

Results flagged for a closer look

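Slc41a2, a magnesium transporter gene, was singled out because its heme differences ran in opposite directions in the compartments, each by at least 1.5-fold: 0.83 in surface cells and -0.67 in crypt cells, 1.499 apart. It was the 1 member to do so, as did 34 of 11147 genes (0.305%). With 1 array per group the difference was not tested. No group had enough arrays to look for outlying samples.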

How the results depend on the processing

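Across 10 alternatives, none of the differences that passed 2-fold changed sign. The floor and fold settings reuse the same differences, so no sign could change there. The probe set settings could alter only Slc39a1, which gave none of these differences. Centred on ribosomal protein genes, Slc30a5, Slc39a7 and Slc41a1 came to -0.04, -0.02 and -0.06 for surface against crypt on heme. The 4 members called on heme in surface cells stayed the same 4 under every scaling, floor and damping choice. Each rests on 1 probe set, so the probe set choices could not change them. At 1.5-fold 10 members passed, against 18.5% of 10282 genes. At 3-fold the 2 genes Mt4 and Slc30a10 passed, against 1.91%. In crypt cells Mt1 joined Mt2, giving 2, when arrays were centred on ribosomal protein genes (Mt1 at 1.18) or on the median of all genes (1.04). Those centrings called 3.69% and 3.06% of all genes reaching the floor. At 1.5-fold 5 members passed in crypt cells, against 11.5% of these genes. Surface against crypt on heme gave 19 members at 1.5-fold and 6 at 3-fold, instead of 12, against 52.5% and 15.0% of all genes. On the control diet it gave 16 and 5, instead of 9, against 45.4% and 10.9% of all genes. Centred on ribosomal protein genes it gave 17 there, against 56.9%. The heme effect in surface minus that in crypt gave 9 at 1.5-fold instead of 3, against 18.3% of all genes. The 1.5-fold and 3-fold counts follow from the rule itself. Centring on ribosomal protein genes put the all-gene median at 0.15 for heme in surface cells and 0.21 in crypt cells. Mt4 and Slc30a10 were the called members whose heme values in surface cells depend on levels near or under the floor, and there the floor limits the size. No paired analysis was possible because each diet has 1 pair of pools, so no comparison made here rests on more than 1 pair.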

Other observations

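Lists of the other stimuli to which metallothionein genes are known to respond were examined beside them. Of 9 measured genes of the NRF2 antioxidant response, all 9 were higher on heme in surface cells (median 3.29) and 6 in crypt cells (median 1.25). Among them is Gclc, counted above as a reported Mtf1 target. Of 8 glucocorticoid-responsive genes, 7 reached the floor, with a median of 0.87 in surface and of 0.32 in crypt cells. In each compartment 5 of the 7 had a difference above 0, and the others did not. The chaperone gene Fkbp5 was higher on heme in both, at 10.92 against 9.51 on control in surface cells (1.41) and 9.11 against 7.91 in crypt cells (1.20), and the transcription factor gene Zbtb16 was higher in surface cells, at 8.26 against 6.25 (2.01). Of 8 acute-phase genes, 3 reached the floor in surface cells and none passed 2-fold, with a median of 0.37 (Saa2 at 0.40, Socs3 at 0.37 and Saa1 at -0.75). Over all genes the median was -0.02 for surface cells, against 0.01 for crypt cells. Which of these stimuli, if any, bears on the metallothionein levels was not tested.

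The 7 members higher in surface cells on the heme diet, a choice that shares the heme crypt array, had these differences between heme and control in crypt cells: Mt2 1.85, Mt1 0.98, Slc39a4 0.48, Slc30a4 0.08, Slc30a1 0.05, Mt4 0.05 (under the floor on both arrays) and Slc41a2 -0.67. Surface colonocyte markers were higher on heme in the same comparison, with a median of 1.22, and their part in these values was not tested.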
